A study of Mus musculus with 12 samples.

Results

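The nuclear-encoded subunits of the respiratory chain and of the ATP synthase were followed in mouse embryonic stem cells (mESCs) and in epiblast-like cells (EpiLCs) that expressed mutant or wild-type (WT) EPOP. Members were chosen by gene symbol: the Nduf subunit genes, Sdha to Sdhd, the Uqcr genes, Cyc1, the Cox genes numbered 4 to 8 and the Atp5 genes, with at least 10 counts over all libraries and no pseudogene symbol. This gave 86 of 19630 genes. Complex I (NADH dehydrogenase) had 36 members, complex II (succinate dehydrogenase) 4, complex III (cytochrome bc1 complex) 9, complex IV (cytochrome c oxidase) 20, with Ndufa4 and Ndufa4l2 placed there, and complex V (ATP synthase) 15. Atp5s and Atp5sl carry the Atp5 symbol without being subunits of the enzyme and were kept apart.

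The RNA-seq data are 12 libraries in 4 groups of 3: EpiLCs with mutant EPOP, EpiLCs with WT EPOP, mESCs with mutant EPOP and mESCs with WT EPOP. EPOP is a protein of the Polycomb repressive complex PRC2, and the series asks how it limits where the PRC2.1 form binds chromatin. All cells came from the E14 mESC line and re-expressed EPOP in either form, so every group has the protein; the parental line and knockout cells are not analysed here. The mESCs grew on gelatin in 2i/LIF medium, in which a MEK inhibitor, a GSK3 inhibitor and the cytokine LIF hold cells in the naive state. EpiLCs were made from them on fibronectin with activin A and bFGF and stand for the epiblast just after implantation. The sources used here give neither the nature of the mutation nor the number of clones. The columns that are not WT carry a code left unexplained in the labels. They were read as mutant, since mutant and WT are the only genotypes labelled, and each direction of mutant against WT depends on this reading. Nothing in the labels states that the replicates came from separate cultures. The p-values therefore reflect the spread among these libraries only, and that spread may be technical.

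Complexes I, III and IV pass electrons from NADH to oxygen and pump protons out of the mitochondrial matrix, complex II feeds in electrons from succinate, and complex V uses the returning protons to make ATP. Most subunits are encoded in the nucleus and imported, and the rest by mitochondrial DNA, whose transcripts were not analysed here. Naive mESCs are known to respire actively, whereas cells of the later epiblast state rely more on glycolysis.

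Library totals were 7714164 to 10652151 counts. The state labels were checked with markers: 10 naive genes summed to 162.7 to 178.8 CPM (counts scaled to the effective library size) in mutant EpiLCs, 383.2 to 408.2 in WT EpiLCs, 3877.1 to 3945.4 in mutant mESCs and 3810.0 to 3984.4 in WT mESCs. The 9 epiblast-like genes summed to 1517.4 to 1539.2 CPM in mutant EpiLCs, 1390.5 to 1439.0 in WT EpiLCs, 167.2 to 171.5 in mutant mESCs and 181.4 to 199.2 in WT mESCs. The 10 fibroblast genes stayed at or below 11.4 CPM in sum in every library, with Col3a1 at 0. Of the 86 members, 81 passed the filter on low counts and were tested. The other 5 were the tissue-restricted isoform genes Cox4i2, Cox6a2, Cox7b2, Cox8b and Cox8c.

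Promoters of 3 named members are shown because nuclear respiratory genes are known targets of a small set of transcription factors. Each of the 3 holds matches to motifs of such factors, so they do not stand for the members at large. Each window runs from 250 bases before to 50 after the transcript start, 5′ to 3′ on the gene's strand, from RefSeq on GRCm38.p6. Capitals mark matches to the palindrome of NRF1 (GCGCA, any base, GCGC), a known activator of respiratory genes, or to TCAAGGTCA in either direction, the core bound by the estrogen-related receptors and Esrrb.
Uqcrc1, chr9:108936398-108936697, plus strand: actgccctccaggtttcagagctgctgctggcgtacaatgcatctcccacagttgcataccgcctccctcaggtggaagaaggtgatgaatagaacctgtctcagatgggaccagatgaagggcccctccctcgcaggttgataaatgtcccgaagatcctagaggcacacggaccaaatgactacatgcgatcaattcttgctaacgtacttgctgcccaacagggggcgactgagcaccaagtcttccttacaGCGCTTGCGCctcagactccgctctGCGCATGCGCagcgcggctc
Cox6a1, chr5:115348909-115349208, minus strand: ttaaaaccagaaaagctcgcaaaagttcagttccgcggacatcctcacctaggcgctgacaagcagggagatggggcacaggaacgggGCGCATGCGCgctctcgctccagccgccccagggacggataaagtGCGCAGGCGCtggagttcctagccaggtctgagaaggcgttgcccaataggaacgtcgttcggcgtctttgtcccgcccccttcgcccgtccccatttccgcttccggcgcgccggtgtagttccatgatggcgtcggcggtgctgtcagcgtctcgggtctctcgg
Sdhd, chr9:50603800-50604099, minus strand: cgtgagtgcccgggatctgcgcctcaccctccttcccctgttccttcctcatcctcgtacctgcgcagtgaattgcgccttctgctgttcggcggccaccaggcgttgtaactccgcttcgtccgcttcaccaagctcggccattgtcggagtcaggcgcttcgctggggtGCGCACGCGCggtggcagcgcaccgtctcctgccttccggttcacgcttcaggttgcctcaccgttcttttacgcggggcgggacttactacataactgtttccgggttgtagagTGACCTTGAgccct
Uqcrc1 and Cox6a1 each held 2 NRF1 matches, and Sdhd held 1 NRF1 match and 1 match to the Esrrb core. Most windows held neither: of the tested members with a window, 51 had no NRF1 match and 66 had no Esrrb core.

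Windows were found for 70 of the 86 members, 76 windows in all, and for 10816 of the 13879 genes tested, 13736 windows. Both strands were searched, and no matches of different motifs overlapped in member windows. The NRF1 palindrome was in 23.7% of member windows (18 windows of 17 genes) and in 9.47% of the windows of all tested genes. The YY1 core AAGATGGCG was in 11.8% of member windows, against 2.78% of all windows. The ETS core CCGGAAGT, read by GABPA, a further known activator of these genes, was in 6.58% of member windows, against 7.58% of all windows. The Esrrb core was in 2 member windows (Sdhd and Atp5g3), 2.63%, against 0.262% of all windows. These matches describe letters in the windows and were not tested as binding sites. Members without a window included Atp5a1, Cox4i1, Cox4i2, Cox6a2, Cox6c, Cox8c, Cyc1, Ndufa2, Ndufa4l2, Ndufb9, Ndufs1, Sdhc, Uqcrb, Uqcrc2 and Uqcrq.

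EpiLCs were compared with mESCs of the same genotype. The members fell as a broad group, and every complex took part. In mutant cells 65 of 81 tested members fell and 1 rose (edgeR quasi-likelihood test, adjusted p under 0.05 over all genes), or 80.2% and 1.23%, against a background of 32.6% of all tested genes lower and 33.4% higher. In WT cells 68 members fell and 0 rose, or 84.0% and 0.00%, against 31.0% of all tested genes lower and 31.7% higher. At an unadjusted p under 0.05, 0 members were higher in WT EpiLCs, and DESeq2 and limma-voom also called 0. The median member log2 fold change was -0.39 in mutant cells and -0.41 in WT cells, while the median over all tested genes was 0.00 and 0.01. Of the members that fell, 62 did so in both genotypes, which is 95.4% of the mutant list and 91.2% of the WT list. The library groups did not overlap, with EpiLCs lower, for 65 members in mutant cells and 64 in WT cells, against 33.7% and 31.9% of all tested genes. They did not overlap, with EpiLCs higher, for 2 members in mutant cells (Atp5s and Ndufa12) and 1 in WT cells (Ndufa12), against 34.4% and 33.3% of all tested genes.

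**Figure D1:**
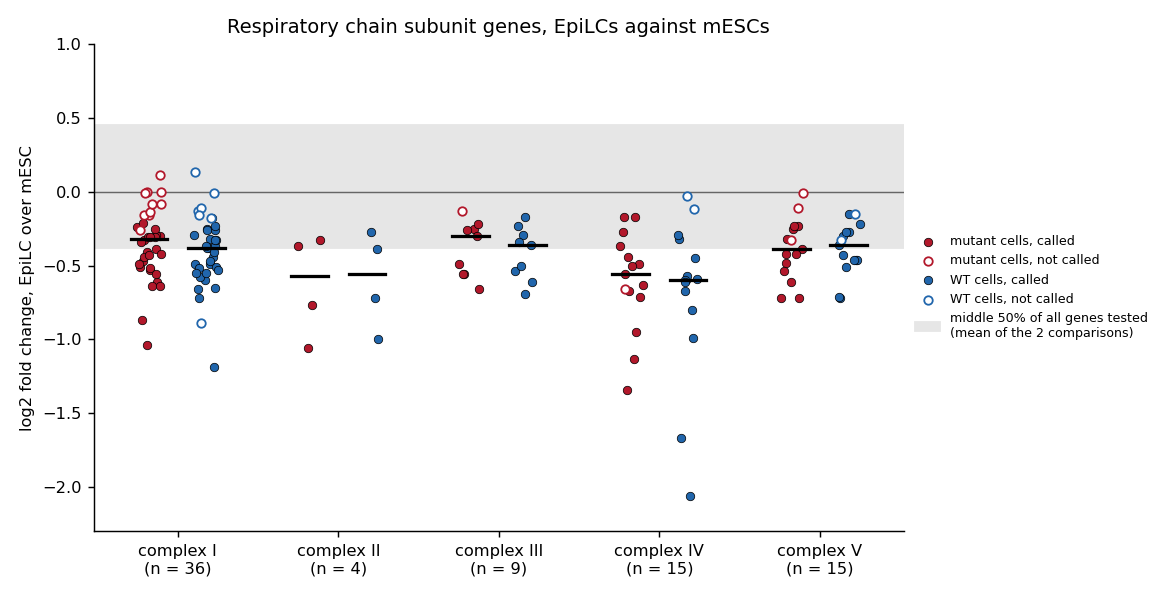
Log2 fold change of each tested subunit, EpiLCs over mESCs, by complex, in mutant and in WT cells, with filled points for members that passed the edgeR threshold and the spread of all tested genes shown for scale. Nearly all points lie below 0, with complex medians in mutant cells between -0.30 (complex III) and -0.57 (complex II).

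Summed over a complex per length, as the authors' TPM (a count scaled by transcript length and library), each of the 5 complexes was lower in all EpiLC libraries than in all mESC libraries of the same genotype. Complex II summed to 649 ± 1 TPM in mutant EpiLCs and 970 ± 3 in mutant mESCs (SD, n = 3 each), and to 649 ± 21 in WT EpiLCs and 939 ± 14 in WT mESCs. That was a ratio of 0.668 in mutant cells and 0.691 in WT cells, the lowest of the 5 complexes. Complex IV followed with 5016 ± 85 TPM in mutant EpiLCs against 6822 ± 210 in mutant mESCs, and 4728 ± 209 in WT EpiLCs against 6460 ± 273 in WT mESCs. The ratios of complexes I, III and V lay between 0.793 and 0.834 over both genotypes. All members together made up 0.936 to 0.961% of the counts in mutant EpiLCs, 0.898 to 0.931% in WT EpiLCs, 1.23 to 1.25% in mutant mESCs and 1.17 to 1.23% in WT mESCs. In bulk RNA, fewer cells with a transcript and less of it per cell cannot be told apart.

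**Figure D2:**
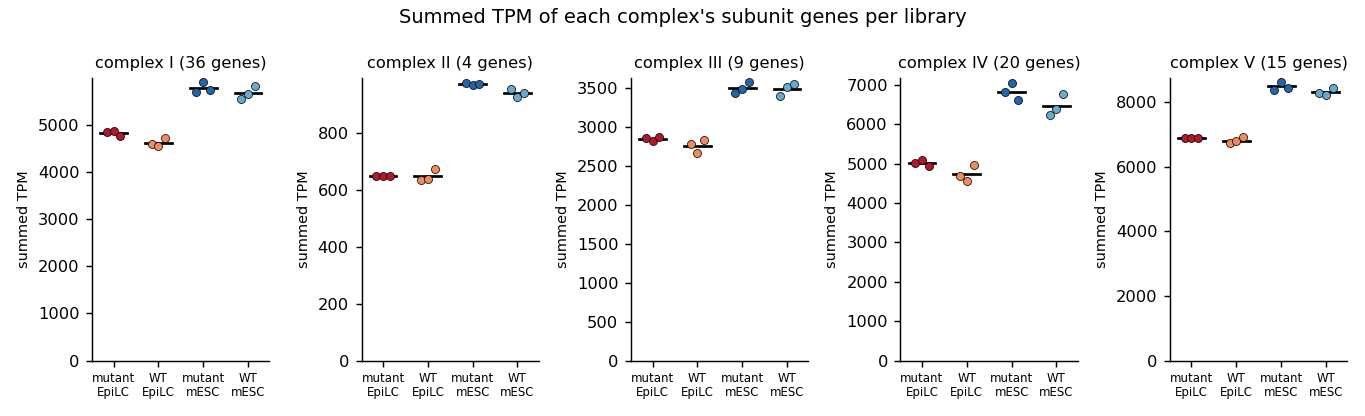
Summed TPM of the subunits of each complex in each of the 12 libraries, with the mean of 3 libraries per group. The mutant and WT EpiLC libraries sit below the mESC libraries of the same genotype for every complex.

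In complex I, 26 of 36 members fell in mutant cells and 29 in WT cells, with medians of -0.32 and -0.38. Ndufv1 encodes the subunit that binds NADH and FMN. It stood at 110.9, 103.0 and 102.5 CPM in mutant EpiLCs, 101.8, 104.0 and 106.2 in WT EpiLCs, 158.6, 148.5 and 160.7 in mutant mESCs and 145.6, 145.1 and 159.7 in WT mESCs. Every EpiLC library was below every mESC library, and the log2 fold change was -0.56 ± 0.05 (SE; edgeR adjusted p = 8.79e-18) in mutant cells and -0.53 ± 0.05 (5.04e-16) in WT cells. Ndufv2, its iron-sulfur partner in the NADH module, fell by 0.64 in mutant and by 0.66 in WT cells on the log2 scale. Ndufs1, an iron-sulfur subunit of the same module, fell by 0.31 and 0.29 on the log2 scale in mutant and WT cells. Ndufs7, a subunit at the quinone-binding site, fell by 0.49 and 0.47 on that scale.

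The largest falls in complex I were in accessory subunits of the membrane arm. Ndufb5 (chromosome 3 from 32736990 to 32751566 in GRCm38) had 46.9, 50.3 and 46.2 CPM in mutant EpiLCs, against 86.2, 88.8 and 87.6 in mutant mESCs. In WT cells it had 44.7, 44.6 and 47.3 CPM in EpiLCs, against 70.8, 73.5 and 81.4 in mESCs. The groups did not overlap, and the log2 fold change was -0.87 ± 0.07 in mutant cells (edgeR adjusted p = 1.68e-22) and -0.72 ± 0.07 in WT cells (1.19e-16). Ndufb4 had a log2 fold change of -1.04 in mutant and -1.19 in WT cells at 7.04 to 21.2 CPM, but 37.0% of its 50-base stretches are shared with other genes, mostly processed pseudogenes, so its counts are uncertain.

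Some complex I genes did not pass the threshold between the states. Ndufab1, which also serves as the mitochondrial acyl carrier protein, averaged 97.3 ± 4.5 CPM in mutant EpiLCs and 97.7 ± 2.4 in mutant mESCs, and 88.9 ± 6.6 in WT EpiLCs and 97.8 ± 7.6 in WT mESCs (SD, n = 3 each), with edgeR adjusted p of 0.91 and 0.0528. The log2 fold change of Ndufs8, an iron-sulfur subunit, was -0.08 in mutant cells and -0.01 in WT cells, and that of Ndufc2 was -0.08 and -0.11, none past the threshold. Ndufa12, an accessory subunit, was the only complex I gene whose libraries were all higher in EpiLCs in both genotypes: 45.4 ± 0.68 CPM in mutant EpiLCs against 42.0 ± 2.3 in mutant mESCs, and 43.4 ± 1.7 in WT EpiLCs against 39.7 ± 2.7 in WT mESCs. Its log2 fold changes of 0.11 and 0.13 did not pass the threshold (edgeR adjusted p = 0.242 and 0.191), but did in both genotypes with an offset for transcript length and GC content. Ndufs5 was counted at 0.445 to 1.98 CPM in all libraries, and 31.1% of its 50-base stretches are shared with a processed pseudogene, so its level is uncertain.

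All 4 complex II genes fell in both genotypes. Sdhb, the iron-sulfur subunit (chromosome 4 from 140961203 to 140979193 in GRCm38), had 81.9, 84.4 and 81.7 CPM in mutant EpiLCs, against 174.6, 174.2 and 167.1 in mutant mESCs. In WT cells it had 64.6, 74.1 and 79.2 CPM in EpiLCs, against 147.2, 142.4 and 146.4 in mESCs. No EpiLC library reached an mESC library, and the log2 fold change was -1.06 ± 0.06 in mutant cells (edgeR adjusted p = 4.08e-37) and -1.0 ± 0.06 in WT cells (1.22e-33). Sdhc, a membrane anchor, fell by 0.77 in mutant and 0.72 in WT cells on the log2 scale. The flavoprotein Sdha, which oxidizes succinate, and the second anchor Sdhd, whose promoter is printed above, moved less: Sdha fell by 0.33 and 0.27 and Sdhd by 0.37 and 0.39 on the log2 scale. Per length, the 4 genes lay between 146.7 and 168.5 TPM as group means in EpiLCs, whereas in mESCs they spread from 193.0 TPM (Sdha in WT cells) to 320.1 TPM (Sdhb in mutant cells).

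In complex III, 8 of 9 members fell in mutant cells and all 9 in WT cells, with medians of -0.30 and -0.36. Uqcrc1 encodes a core protein of the complex (chromosome 9 from 108936633 to 108949623 in GRCm38; promoter printed above). It had 250.0, 252.6 and 255.0 CPM in mutant EpiLCs against 408.7, 384.4 and 402.7 in mutant mESCs, and 262.4, 256.4 and 237.6 in WT EpiLCs against 369.4, 370.4 and 358.6 in WT mESCs. The EpiLC and mESC libraries were far apart, with log2 fold changes of -0.66 ± 0.04 in mutant cells (edgeR adjusted p = 4.10e-30) and -0.54 ± 0.04 in WT cells (3.17e-23). The electron-carrying subunits moved less. Cyc1, cytochrome c1, fell by 0.25 in mutant and 0.29 in WT cells on the log2 scale, and Uqcrfs1, the Rieske iron-sulfur protein, fell by 0.22 and 0.17. Of the small subunits, Uqcr10 fell by 0.56 and 0.61, and Uqcrb by 0.56 and 0.69, although 43.4% of the 50-base stretches of Uqcrb are shared with other genes. Uqcrh, the hinge protein, had -0.13 in mutant cells, below the threshold, and -0.23 in WT cells, past it.

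Complex IV had the deepest median with complex II: -0.56 in mutant and -0.60 in WT cells, with 14 and 13 of 15 tested members lower. Cox5a encodes a matrix-facing subunit (chromosome 9 from 57521274 to 57532426 in GRCm38). It had 127.1, 134.3 and 124.7 CPM in mutant EpiLCs against 251.3, 250.4 and 243.4 in mutant mESCs, and 126.7, 123.3 and 133.9 in WT EpiLCs against 240.8, 251.0 and 271.6 in WT mESCs. The states did not overlap, and the log2 fold change was -0.95 ± 0.05 in mutant cells (edgeR adjusted p = 2.69e-38) and -0.99 ± 0.05 in WT cells (7.00e-40). Of its 50-base stretches 32% are shared with other genes, pseudogenes and an opposite-strand transcript among them. Cox6a1, whose promoter is printed above, fell by 0.67 on the log2 scale in both genotypes. Cox5b, a further matrix-side subunit, moved less, with log2 fold changes of -0.17 and -0.32, both past the threshold. Cox4i1, the regulatory subunit that contacts the core, fell by 0.44 and 0.45 on the log2 scale and was the complex IV gene with the most TPM in every group. Cox7c stood at log2 fold changes of -0.17 in mutant cells, past the threshold, and -0.03 in WT cells, not past it.

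The isoform genes of complex IV gave a more detailed view. Cox7a1, known as the heart and muscle isoform of subunit 7a (chromosome 7 from 30184144 to 30186078 in GRCm38), had 3.09, 4.01 and 3.21 CPM in mutant EpiLCs against 7.89, 8.63 and 9.46 in mutant mESCs, and 2.90, 1.53 and 1.88 in WT EpiLCs against 8.53, 10.3 and 7.32 in WT mESCs. It was low in all libraries and lower in every EpiLC library, with log2 fold changes of -1.34 ± 0.23 in mutant cells (edgeR adjusted p = 2.12e-07) and -2.06 ± 0.25 in WT cells (2.29e-12). Its share of the summed Cox7a1, Cox7a2 and Cox7a2l TPM was 6.38 ± 0.53% in mutant EpiLCs, 4.21 ± 1.5% in WT EpiLCs, 11.4 ± 1.1% in mutant mESCs and 12.0 ± 2.4% in WT mESCs (SD, n = 3 each). Cox7a2, the widely expressed isoform, fell by 0.50 and 0.59 on the log2 scale. Cox7a2l, which joins complexes III and IV in supercomplexes, fell by 0.27 in mutant cells, and its value of -0.12 in WT cells did not pass the threshold. The 9 striated muscle markers in the table summed to 32.3 to 35.6 CPM in mutant EpiLCs, 34.1 to 37.0 in WT EpiLCs, 20.1 to 24.0 in mutant mESCs and 28.5 to 32.3 in WT mESCs. Of the 5 that were tested, 3 were higher and 2 lower in EpiLCs of mutant cells, and 2 higher and 2 lower in WT cells. Myh6, a heart myosin, rose in both genotypes (log2 3.46 and 1.75), while Myl7, an atrial myosin light chain, fell by 4.29 in mutant cells and Tnni3, the heart troponin I, by 0.96 in WT cells on the log2 scale. Their part in the Cox7a1 values was not tested.

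Cox6b2, known as the testis isoform of subunit 6b, had 11.6, 13.3 and 14.9 CPM in mutant EpiLCs against 31.0, 29.4 and 26.4 in mutant mESCs, and 16.0, 14.1 and 17.1 in WT EpiLCs against 26.9, 26.4 and 29.0 in WT mESCs. Every EpiLC library was below every mESC library, and the log2 fold change was -1.13 ± 0.12 in mutant cells (edgeR adjusted p = 5.67e-15) and -0.80 ± 0.12 in WT cells (4.35e-09). Its ubiquitous counterpart Cox6b1 fell by 0.71 and 0.60 on that scale, and Cox6b2 made up 12.1 ± 1.9, 14.9 ± 2.0, 15.5 ± 1.1 and 16.6 ± 0.39% of the summed TPM of the pair in mutant EpiLCs, WT EpiLCs, mutant mESCs and WT mESCs (SD, n = 3 each). In the other families the widely expressed gene made up 99.5% or more of the family's TPM after rounding, as a mean of 3 libraries in each group: Cox4i1, Cox6a1, Cox7b, Cox8a and Ndufa4. Their partners Cox4i2 (46 counts over 12 libraries), Cox6a2 (27), Cox7b2 (18), Cox8b (15) and Cox8c (15) were near the detection limit, and Ndufa4l2 reached at most 1.88 CPM. Ndufa4l2, a relative of Ndufa4 known to respond to hypoxia, was lower in WT EpiLCs, at 0.508 ± 0.26 CPM against 1.66 ± 0.19 in WT mESCs (SD, n = 3 each, edgeR adjusted p = 0.00783). It was not called between the states in mutant cells and had only 98 counts over 12 libraries. Its share of the pair's TPM was 0.202 ± 0.12% in mutant EpiLCs and 0.251 ± 0.21% in mutant mESCs. In WT cells the share was 0.195 ± 0.096% in EpiLCs and 0.524 ± 0.078% in mESCs.

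In complex V, 12 of 15 members fell in mutant cells and 13 in WT cells, with medians of -0.39 and -0.36. The catalytic pair was highly expressed. Atp5b, the catalytic beta subunit, had 1641.4, 1678.9 and 1594.0 CPM in mutant EpiLCs against 2043.8, 2095.4 and 1997.0 in mutant mESCs, and 1643.4, 1645.5 and 1623.9 in WT EpiLCs against 1998.7, 1944.5 and 1968.0 in WT mESCs. No libraries overlapped between the states, and the log2 fold change was -0.32 ± 0.03 in mutant cells (edgeR adjusted p = 5.41e-17) and -0.27 ± 0.03 in WT cells (5.81e-13). Atp5a1, the alpha subunit, fell by 0.42 and 0.36 on the log2 scale.

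Atp5g1, Atp5g2 and Atp5g3 encode the same mature c subunit, which forms the rotating ring. Atp5g1 (chromosome 11 from 96068852 to 96075670 in GRCm38) had 109.3, 115.8 and 107.1 CPM in mutant EpiLCs against 168.2, 179.0 and 199.0 in mutant mESCs, and 101.7, 104.6 and 111.8 in WT EpiLCs against 171.2, 166.6 and 186.2 in WT mESCs. Its log2 fold change was -0.72 ± 0.05 in mutant cells (edgeR adjusted p = 1.78e-24) and -0.72 ± 0.05 in WT cells (4.45e-24), with no overlap between states. Atp5g3 fell by 0.23 and 0.27 on that scale, and Atp5g2 had -0.11 in mutant cells, not past the threshold, and -0.22 in WT cells, past it. The Atp5g1 share of the family's TPM was accordingly 20.9 ± 0.79% in mutant EpiLCs, 21.0 ± 0.56% in WT EpiLCs, 27.3 ± 1.7% in mutant mESCs and 26.7 ± 0.90% in WT mESCs (SD, n = 3 each), and Atp5g3 made up 58.1 to 62.1% in all groups. Atp5e, the epsilon subunit, had -0.01 and -0.15, neither past the threshold. For Atp5l, 84.8% of the 50-base stretches are shared with other genes, so its value of -0.33 in both genotypes is uncertain.

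The member that rose was no subunit. Atp5s, a coupling factor of the ATP synthase, had 4.22, 3.65 and 6.53 CPM in mutant EpiLCs against 1.89, 2.81 and 1.45 in mutant mESCs, and 3.90, 2.55 and 5.16 in WT EpiLCs against 3.54, 3.01 and 2.95 in WT mESCs. The mutant states did not overlap (log2 fold change 1.21 ± 0.31, edgeR adjusted p = 3.59e-04), while the WT states did (0.27 ± 0.30, adjusted p = 0.435), and the difference between the genotypes had an adjusted p of 0.181. A stricter filter on low counts leaves the gene untested.

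For other members the counts are uncertain because 50-base stretches are shared with other genes: 47.9% for Atp5h, 39.7% for Ndufs3, 38.7% for Atp5f1, 34.1% for Ndufb6, 34.0% for Atp5o, 28.5% for Ndufa13, 27.9% for Cox7c, 26.2% for Ndufa12 and 25.9% for Cox5b. The same holds for Uqcrc2 (24.8%) and Ndufb9 (23.4%), and exons of Ndufb9 overlap the gene Gm49356 on the same strand. The sources used here do not say if counting used strand. Reads from exons that overlap a gene of the opposite strand, such as Mrpl47 for Ndufb5, Emc8 for Cox4i1, Smim27 for Ndufb6 and Tssk6 for Ndufa13, cannot be told apart. The authors' deposited table called 64 members lower and 1 higher in mutant EpiLCs against mutant mESCs, against 24.6% and 26.0% of all its genes. In WT cells the authors' deposited table called 69 members lower and 0 higher, against 23.4% and 24.2%, and 68 of them were also called here. The authors' calls rest on the same counts, and their direction was read from the fit used here, so they are no independent evidence.

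**Figure D3:**
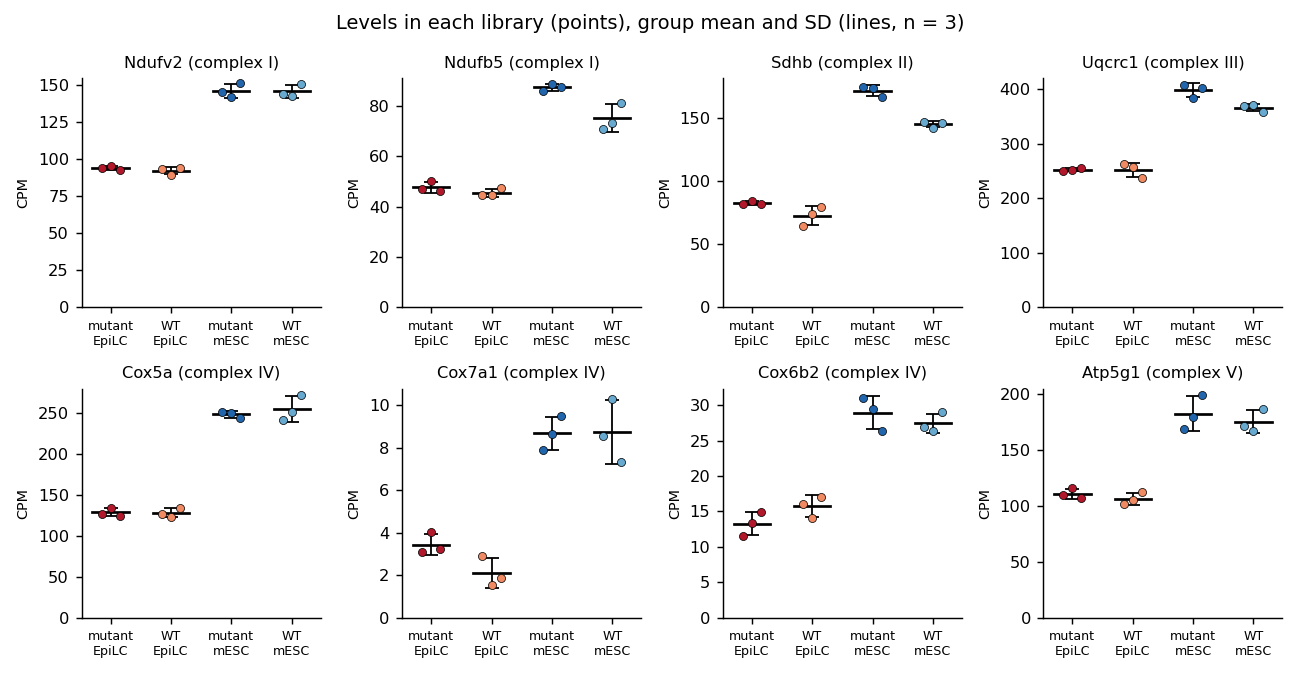
CPM of 8 subunit genes in each of the 12 libraries, with the mean of 3 libraries per group: Ndufv2, Ndufb5, Sdhb, Uqcrc1, Cox5a, Cox7a1, Cox6b2 and Atp5g1. In each panel all EpiLC libraries lie below all mESC libraries, for example Sdhb at 64.6 to 84.4 CPM in EpiLCs and 142.4 to 174.6 CPM in mESCs.

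Mutant and WT EPOP were compared within each state. The number of clones is not given, so a change made by the mutant protein cannot be told apart from a difference between cell lines. Below, mutant effect names the difference between mutant and WT cells and not its cause. Most differences in the members were small. On the log2 scale, mutant over WT, the members ranged from -0.92 to 0.32 in mESCs and from -0.25 to 0.94 in EpiLCs. Neither the value of -0.92 nor that of 0.94 passed the edgeR threshold. In mESCs 13 of 81 members rose in mutant cells and 0 fell (edgeR), or 16.0% higher, against a background of 8.40% of all tested genes higher and 10.1% lower. In EpiLCs 9 members rose in mutant cells and 0 fell, or 11.1% higher, against 7.02% higher and 8.80% lower among all tested genes. At an unadjusted p under 0.05, 19 members were higher and 0 lower in mutant mESCs, and 23 higher and 0 lower in mutant EpiLCs; DESeq2 and limma-voom also called 0 lower in both states. The median member log2 fold change was 0.06 in mESCs and 0.09 in EpiLCs, against 0.00 over all tested genes. In mESCs it was 0.101 without replicate 3 of the WT, and 0.036 with upper quartile factors, under which the median over all tested genes was -0.026. Mutant libraries were all above WT libraries for 22 members in mESCs and 18 in EpiLCs, against 15.4% and 14.5% of all tested genes, and all below them for 1 in each state, against 16.4% and 16.0%. As summed TPM, mutant and WT libraries overlapped for every complex except II in mESCs and except I in EpiLCs, where the mutant libraries were higher. All members together were 2.86% higher in mutant mESCs, with overlap, and 3.38% higher in mutant EpiLCs, without overlap. The authors' deposited table called 9 members higher and 0 lower in mutant EpiLCs, against 5.62% and 6.69% of its genes, and 8 of the 9 were called here. These calls too rest on the same counts, with the direction read from the fit used here.

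**Figure D4:**
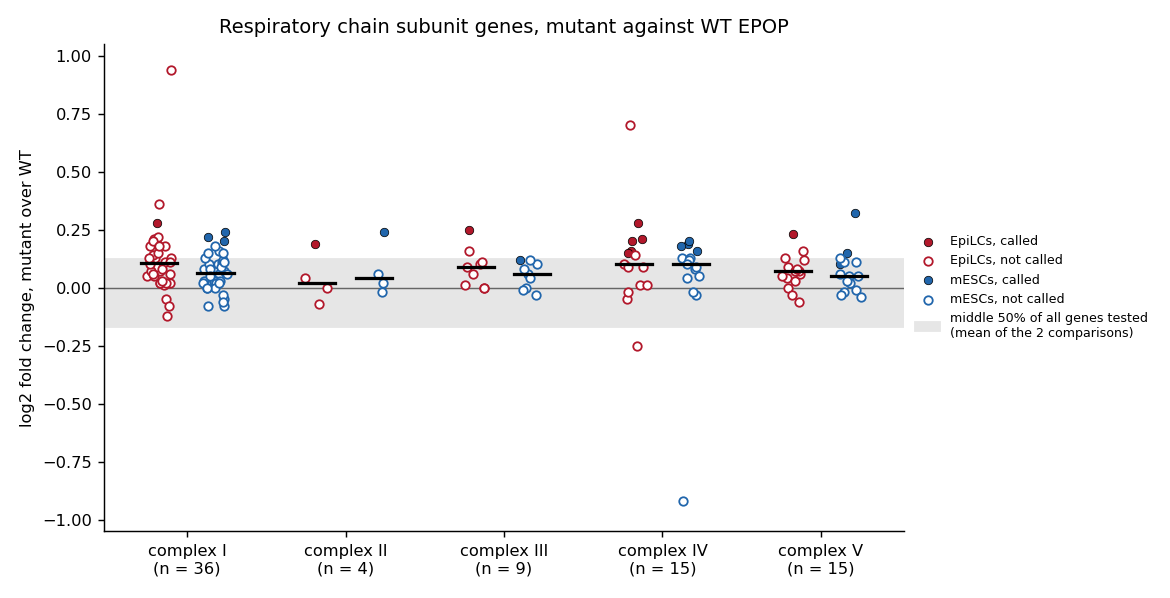
Log2 fold change of each tested subunit, mutant over WT, by complex, in mESCs and in EpiLCs, with filled points for members that passed the edgeR threshold. Short lines are the medians of each complex, and the grey band is the middle 50% of all tested genes. The filled points all lie above 0, up to 0.32 for Atp5k in mESCs.

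The 3 members that rose in mutant cells of both states were Sdhb, Cox4i1 and Cox6a1, which is 23.1% of the mESC list and 33.3% of the EpiLC list. Sdhb, whose library values are given above, was higher in all mutant libraries of each state, with log2 fold changes of 0.24 ± 0.05 in mESCs (edgeR adjusted p = 2.19e-04) and 0.19 ± 0.06 in EpiLCs (0.0234). Cox4i1 had 348.2, 381.7 and 337.1 CPM in mutant EpiLCs against 310.8, 309.6 and 331.5 in WT EpiLCs, and 481.8, 493.9 and 473.5 in mutant mESCs against 414.2, 437.2 and 450.2 in WT mESCs. The mutant libraries lay above the WT libraries in both states, and the log2 fold change was 0.16 ± 0.04 in each, with edgeR adjusted p of 0.00219 in EpiLCs and 0.00258 in mESCs. Cox6a1, subunit 6a of the ubiquitous type, had 130.1, 128.9 and 134.7 CPM in mutant EpiLCs against 106.0, 110.4 and 127.8 in WT EpiLCs, and 206.4, 220.7 and 199.3 in mutant mESCs against 180.3, 175.8 and 193.3 in WT mESCs. It too was higher in all mutant libraries, by 0.20 ± 0.05 in EpiLCs (adjusted p = 0.00588) and 0.19 ± 0.05 in mESCs (0.00275).

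The other 10 members that rose in mutant mESCs were spread over the complexes. In complex I these were Ndufb5, Ndufb7 and Ndufb9, all of the membrane arm; Ndufb9 was at 64.1 ± 4.0 CPM in mutant and 54.4 ± 3.5 in WT mESCs (SD, n = 3 each; log2 0.24, edgeR adjusted p = 0.0149). In complex III it was Uqcrc1, at 398.6 ± 12.7 CPM in mutant and 366.1 ± 6.5 in WT mESCs (log2 0.12, edgeR adjusted p = 0.0254). In complex IV, Cox6b1 averaged 129.4 ± 6.0 CPM in mutant and 113.0 ± 2.5 in WT mESCs (log2 0.20, edgeR adjusted p = 0.00731), and Ndufa4 rose by 0.18. In complex V, Atp5k, the e subunit, had the largest change, 0.32 ± 0.11 on the log2 scale (edgeR adjusted p = 0.0244), but its libraries overlapped: 33.2, 38.7 and 37.2 CPM in mutant mESCs against 24.5, 28.2 and 35.3 in WT mESCs. Atp5o, the stalk protein that holds the catalytic head, rose by 0.15, Atp5a1 by 0.10 and the non-subunit Atp5sl by 0.28 on the log2 scale.

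The other 6 members that rose in mutant EpiLCs were Ndufa5, Uqcrb, Cox5b, Cox6c, Cox8a and Atp5j2. Cox5b averaged 86.2 ± 2.9 CPM in mutant and 71.2 ± 9.7 in WT EpiLCs (log2 0.28, edgeR adjusted p = 0.0029), without overlap. Ndufa5 averaged 43.3 ± 1.0 CPM in mutant and 35.8 ± 3.3 in WT EpiLCs (log2 0.28, edgeR adjusted p = 0.0139), and Uqcrb 53.6 ± 2.6 and 45.2 ± 5.3 (log2 0.25, adjusted p = 0.0161). Atp5j2, the f subunit of the membrane part of complex V, averaged 100.8 ± 2.5 CPM in mutant and 86.1 ± 5.9 in WT EpiLCs (log2 0.23, edgeR adjusted p = 0.00219). Cox7a1 had the second largest positive value, 0.70 ± 0.29, at 3.44 ± 0.50 CPM in mutant and 2.10 ± 0.71 in WT EpiLCs, and did not pass the threshold (edgeR adjusted p = 0.089). The core genes Ndufs1, Sdha, Uqcrfs1, Cox5a and Atp5b had log2 fold changes between -0.03 and 0.06 in both states, none past the threshold.

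The counts of mutant-higher members depended on single libraries. In mESCs the 13 became 8 without replicate 1 or replicate 2 of the mutant, 7 without replicate 1 of the WT and 6 without replicate 2 of the WT. In EpiLCs the 9 became 5 without replicate 1 of the WT and 3 without replicate 2 of the WT. Calls over all tested genes moved too when 1 library was left out. They numbered 1948 to 2647 in mESCs and 1665 to 2291 in EpiLCs. The main fit called 1166 genes higher and 1408 lower in mutant mESCs, and 974 higher and 1222 lower in mutant EpiLCs. Under all 21 alternatives, Sdhb and Cox4i1 stayed called in mESCs and no member did in EpiLCs. The members are short transcripts, with a median of 704 bases against 2125 over all tested genes, and with an offset for length and GC content the median effect was 0.044 in mESCs and 0.048 in EpiLCs, with 10 and 5 members higher. Cox6a1 lost its call without replicate 2 of the mutant in mESCs, and without replicate 1 or replicate 2 of the WT, or with that offset, in EpiLCs. In these comparisons markers of cell states also differed. Of the 10 naive markers, 9 were lower and 0 higher in mutant than in WT EpiLCs (median log2 -1.16), with 1 lower and 1 higher in mutant mESCs (median -0.03). Of the 9 epiblast-like markers, 7 were higher and 2 lower in mutant EpiLCs (median 0.45), and 0 higher and 4 lower in mutant mESCs (median -0.44). The 10 two-cell-like markers differed too, summing to 24.7 to 27.1 CPM in mutant against 85.1 to 105.0 in WT EpiLCs, and 7.35 to 11.2 in mutant against 59.5 to 65.5 in WT mESCs. The 9 primitive endoderm markers summed to 29.7 to 32.1 CPM in mutant against 59.3 to 61.1 in WT EpiLCs, and 150.4 to 158.2 in mutant against 116.3 to 134.1 in WT mESCs. Lama1 alone made up most of the mESC sums, at 144.6 ± 3.6 CPM in mutant and 110.6 ± 7.8 in WT mESCs. Of the 8 tested, 1 was higher and 1 lower in mutant mESCs (median -0.38). In mutant EpiLCs 0 were higher and 4 lower (median -0.82). Whether these cell states bear on the members' values was not tested.

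A test of the difference between the mutant effect in EpiLCs and that in mESCs called 0 members in either direction (edgeR), against 4.69% of all tested genes higher and 5.05% lower. At an unadjusted p under 0.05 there were 5 members, 3 with a larger and 2 with a smaller effect in EpiLCs, and DESeq2 and limma-voom also called 0. The lists of risen members in the 2 states are therefore not shown to differ. As a difference of effects, Cox7a1 stood at 0.72 ± 0.36 (edgeR adjusted p = 0.219), Cox6b2 at -0.33 ± 0.17 (0.256) and Atp5k at -0.27 ± 0.16 (0.347).

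Other genes of mitochondrial function were followed as lists and are described by counts and medians only; as given above, 32.6% of all tested genes were lower and 33.4% higher in EpiLCs of mutant cells, and 31.0% and 31.7% in WT cells. Mitochondrial ribosomal proteins, which translate the mitochondrially encoded subunits, had 8 genes higher and 36 lower of 77 in EpiLCs of each genotype, with medians of -0.17 in mutant and -0.15 in WT cells. Of 18 genes of the tricarboxylic acid cycle and pyruvate dehydrogenase, 3 were higher and 11 lower in mutant cells (median -0.21), and 2 higher and 9 lower in WT cells (median -0.10). Pdha1, a subunit of pyruvate dehydrogenase, stood at 182.4 ± 3.8 CPM in mutant EpiLCs, 219.2 ± 2.7 in WT EpiLCs, 248.1 ± 11.4 in mutant mESCs and 244.2 ± 9.8 in WT mESCs, and was lower in mutant EpiLCs than in WT EpiLCs (log2 -0.27, edgeR adjusted p = 3.12e-06), which no respiratory subunit was.

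Assembly factors, which help to build the complexes without staying in them, held genes of both directions, and several of their shares lay near those of all tested genes. Complex I factors had 2 higher and 5 lower of 14 in mutant cells (median -0.15) and 1 higher and 6 lower in WT cells (median -0.07). Complex IV factors had 3 higher and 10 lower of 23 in mutant cells (median -0.12) and 2 higher and 8 lower in WT cells (median -0.13). Cox16 was the complex IV factor with the largest rise, at 19.9 ± 1.3 CPM in mutant EpiLCs against 10.2 ± 0.32 in mutant mESCs, and 19.2 ± 0.92 in WT EpiLCs against 11.5 ± 2.0 in WT mESCs. Complex V factors had 1 higher and 1 lower of 3 in mutant cells (median -0.03), and 1 higher and 2 lower in WT cells (median -0.22). Tmem70 was the complex V factor that was higher in EpiLCs, by 0.55 in mutant and 0.36 in WT cells on the log2 scale. Atpaf2 was lower in mutant cells (log2 -0.28), and Atpaf1 was among those lower in WT cells (log2 -0.23). For cytochrome c and coenzyme Q synthesis, 1 gene was higher and 6 lower of 15 in mutant cells, and 1 higher and 5 lower in WT cells. Of 15 genes that copy and express mitochondrial DNA, 4 were higher and 4 lower in mutant cells, and 3 and 3 in WT cells. Between the states, 0 of the 2 complex II factors were called, and of the 5 complex III factors Bcs1l was called, lower in both genotypes.

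**Figure D5:**
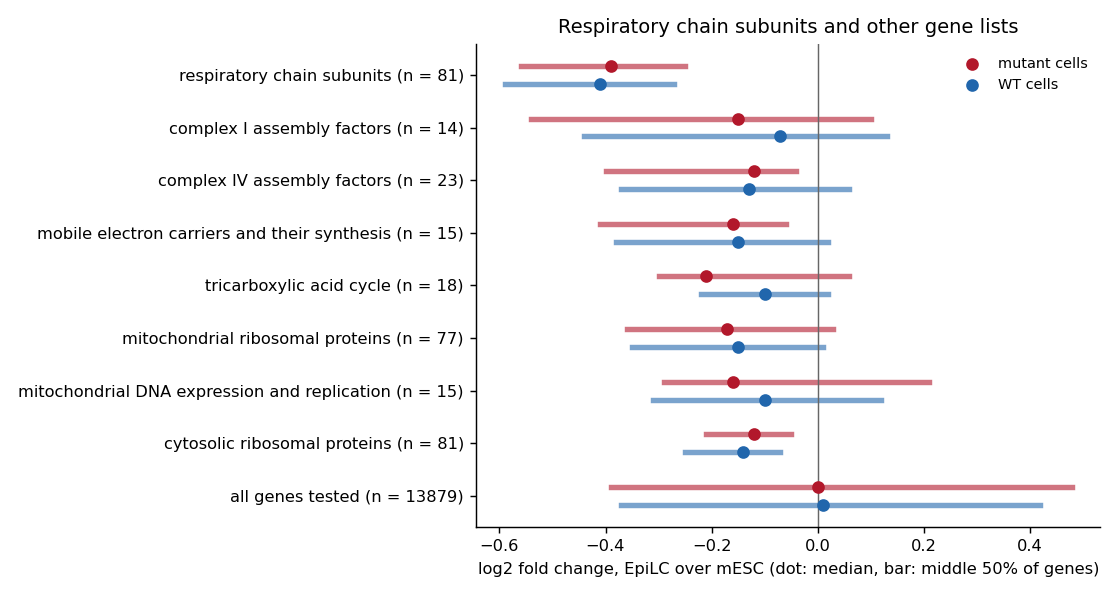
Log2 fold change, EpiLCs over mESCs, of the tested respiratory members, of 7 other gene lists and of all tested genes, in mutant and in WT cells, with a dot for the median and a bar for the middle 50% of genes. The members have the lowest medians shown, -0.39 in mutant and -0.41 in WT cells, and the other lists lie between -0.21 and -0.07.

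Cytosolic ribosomal proteins, whose median transcript length of 712 bases is close to that of the members, moved with them in the same directions. They had 3 genes higher and 52 lower of 81 in mutant EpiLCs against mutant mESCs (median -0.12), and 4 higher and 56 lower in WT cells (median -0.14). In mutant against WT cells they had 36 higher and 2 lower in mESCs (median 0.10) and 42 higher and 1 lower in EpiLCs (median 0.11). For the states, the offset for length and GC content left 58 members lower in mutant and 62 in WT cells, with medians of -0.317 and -0.339.

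Among 11 tested regulators of respiratory genes, 4 were higher and 4 lower in EpiLCs of each genotype, which is near the shares of all tested genes. Esrrb, a nuclear receptor of the naive state, stood at 22.4 ± 2.8 CPM in mutant EpiLCs, 90.6 ± 3.0 in WT EpiLCs, 925.3 ± 22.4 in mutant mESCs and 940.6 ± 43.9 in WT mESCs (SD, n = 3 each). It was lower in mutant than in WT EpiLCs (log2 -2.0, edgeR adjusted p = 1.42e-56). The part of Esrrb in the members' values was not tested. Myc, a growth regulator, had 134.1 ± 5.8 CPM in mutant EpiLCs, 119.0 ± 2.9 in WT EpiLCs, 34.7 ± 2.1 in mutant mESCs and 15.3 ± 0.80 in WT mESCs. Members with an NRF1 match in a promoter window had a median of -0.41 in mutant and -0.46 in WT cells (17 genes), against -0.33 and -0.37 without one (51 genes). For the YY1 core the medians were -0.42 and -0.45 with it (8 genes), against -0.35 and -0.40 without it. Members with the ETS core fell less, at -0.30 and -0.34 (5 genes), against -0.37 and -0.44. The 2 members with the Esrrb core, Sdhd and Atp5g3, had medians of -0.30 and -0.33, against -0.38 and -0.44 without it. By the values given above, Sdhd in mutant cells lay near the median without the core, and Atp5g3 fell less. These medians are a description only.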

How the data were processed

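Total RNA of 12 libraries, 3 in each of 4 groups, was sequenced after TRIzol extraction and a NEBNext Ultra II library kit, per the labels' protocols. The authors deposited raw counts per gene in 1 table with the columns of every library. Per the submitters' processing notes, edgeR 3.18.1, featureCounts (Subread), STAR 2.5.3a and FastQC 0.11.2 were among the tools, with mm10 as the build. The sources used here do not give the annotation or the strand setting. The deposited CPM columns hold a score that depends on an effective library size and were left unused. The deposited TPM columns have equal sums, set by the authors, and gave levels per length, with no test. From log2 fold changes and adjusted p-values (FDR under 0.05) in the authors' deposited table, calls were counted for the 3 comparisons they cover, which leave out the mutant effect in mESCs. The sign of the authors' log2 fold changes was read from their correlation with those found here over all tested genes. A common direction over all genes was therefore built in. The table has 0 columns without a sample.

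Of 19656 features, 26 carry dates in place of symbols (0.182 to 0.212% of counts) and entered neither library sizes nor tests. After filterByExpr and TMM scaling (factors 0.985 to 1.01), a single edgeR 4.0.16 quasi-likelihood model was run in R 4.3.3 on all 12 libraries (8 residual degrees of freedom). In each of 5 comparisons, p-values were adjusted with the Benjamini-Hochberg method over 13879 genes and called at 0.05. Log2 fold changes and SE are from this fit, and CPM from counts and effective library sizes. The biological coefficient of variation was 4.57%. Counts of replicate pairs were further apart than sampling noise gives (1.91 to 3.00 in chi-square per degree of freedom), so no library is a copy of another in its group. This does not show that the libraries came from separate cultures. Each library was entered once. The labels give no batch. Symbols were matched to GENCODE M21 (GRCm38), which also gave positions, exon overlaps and shared 50-base stretches, with Python 3.11.15 and pandas 2.3.3; promoter windows came from RefSeq. The steps were also run on counts simulated from the fitted spread. Far fewer genes changed there than were called between the states, so that run does not vouch for the state comparisons.

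Named members were core subunits, isoform families, and per comparison and complex the 2 largest called changes in each direction at a mean of at least 2 CPM; of other lists, the 2 largest called changes and Esrrb. Genes outside that rule, such as Ndufv2, Ndufb7, Ndufa12, Ndufc2, Ndufs5, Ndufs8, Uqcrh, Cox7c, Atp5e and Atp5l, were named after their values were seen. A gene that the rule names is not reported here. The members and lists were chosen with earlier results of these data known. Alternatives were other size factors (RLE, upper quartile), DESeq2 1.42.0, limma-voom (limma 3.58.1), no filter, a stricter filter, only the groups compared, a replicate block, an offset for length and GC content, and each library left out, 21 in all.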

Additional observations from a re-analysis of the deposited data

How the results depend on the processing

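Of the 86 members, 5 had too few counts to be tested. The median member effect of the mutant was 0.06 in mESCs and 0.09 in EpiLCs on the log2 scale, and which members passed depended on single libraries. The members called lower in EpiLCs numbered 63 to 68 in mutant and 65 to 70 in WT cells when 1 library was left out, and 58 of 65 and 59 of 68 were called under all 21 alternatives. The members called higher in mutant cells numbered 6 to 13 in mESCs and 3 to 12 in EpiLCs with 1 library left out. Over all tested genes, calls of mutant against WT in either direction then numbered 1948 to 2647 in mESCs and 1665 to 2291 in EpiLCs. Between the states they numbered 8655 to 9345 in mutant and 8122 to 8799 in WT cells. With the offset for length and GC content, 5 members were higher in mutant EpiLCs, 2 in EpiLCs against mESCs of mutant cells (Atp5s and Ndufa12) and 1 in WT cells (Ndufa12); the stricter filter left 0 in mutant cells, since Atp5s was not tested. The cause of the losses under the offset was not tested. No member changed direction while called. Same-numbered libraries of different groups showed no clear shared deviation (r -0.054 to 0.141 over 18 pairs, against -0.117 to 0.13 over 36 pairs of other numbers). With so few libraries this cannot settle whether same-numbered libraries shared a day or culture, which the labels do not state. With a replicate block the genes called were 2581 and 2254 for mutant against WT in mESCs and EpiLCs. They were 9150 and 8685 for EpiLCs against mESCs in mutant and WT cells, and 1401 for the difference of effects. The counts of members called were the same as without the block (13, 9, 65 lower and 1 higher, 68, and 0).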
